A study of Mus musculus with 2 samples.

Results

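The cytosolic ribosomal protein genes of mouse were examined in an immortalised endothelial line of pancreatic islets named MS1. Members were rows of both expression tables whose Ensembl identifier maps to a protein-coding Rpl or Rps symbol followed by a digit, or to Rpsa, Rplp0, Rplp1 or Rplp2, without the Rps6k kinase genes and without symbols holding -ps. This rule found 83 of 11405 listed genes, 49 of the large subunit and 34 of the small subunit. The compared cells carried a lentivirus with a hairpin RNA against Pspc1 (genotype Pspc1 knockdown) or, as control, a lentivirus with a hairpin against LacZ (genotype wt). LacZ is a bacterial gene, and Pspc1 encodes a paraspeckle protein that binds RNA. Poly-A RNA was sequenced in 1 library per group, so no test between groups was possible and no difference has a replicate check. Only 1 hairpin label per gene is given, and the hairpin sequences are not given in the sources used here.

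Each ribosome has a small subunit, which reads the mRNA, and a large subunit, which joins amino acids. Nearly every ribosomal protein is present in a single copy per subunit, and unassembled protein is degraded, so cells make these proteins in matched amounts. Their mRNAs are short and abundant. Many begin with a 5′ terminal oligopyrimidine (TOP) tract, a C at the first base followed by an unbroken run of pyrimidines, through which mTOR and the RNA-binding protein Larp1 control their translation and stability. Paralogues and a large number of processed pseudogenes resemble these genes.

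The labelled target and the cell type were checked first. Pspc1 had a value of 3.78 in the knockdown library and 28.8 in the LacZ library, a log2 ratio of -2.77. Reads on listed genes numbered 53518762 in the knockdown library and 64009912 in the LacZ library. Of 12 endothelial markers 11 were listed, with values between 7.13 and 2175 in the knockdown library and between 13.6 and 2258 in the LacZ library, and Sox17 was not among them. Their summed value was 6462 in the knockdown library and 6252 in the LacZ library, with 4 log2 ratios above 0 and 7 below. The median of these ratios was -0.20, and they ran from -0.94 for Kdr to 0.59 for Esam. Of 10 markers of other cells only Cd68 (124 in the knockdown library, 103 in the LacZ library) and Pdgfra (0.985 and 1.15) were listed. The smallest listed value was 0.118 in the knockdown library, where a read is worth 0.0197. In the LacZ library the smallest value and the worth of a read were both 0.0153. An unlisted marker was therefore not shown to be without reads in either library. The part of marker differences in the ribosomal values was not tested.

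Most textbook subunits were present under the rule. A list of 80 core ribosomal proteins, 47 large and 33 small, was wholly listed in the tables. The rule covers 77 of them and leaves out 3 whose symbols do not start with Rp, among them Fau and Rack1. The other 6 members are not core subunits. Rpl22l1, Rpl36al and Rps27l are paralogues of Rpl22, Rpl36a and Rps27, and Rps27rt is annotated as a retrogene of Rps27. Rpl7l1 resembles Rpl7 and acts in subunit assembly, and Rps19bp1 encodes a protein that binds Rps19.

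The start sites of some members are shown because TOP tracts are the sequence feature these genes are known for. RefSeq start-site sequences (GRCm38.p6) were found for 63 of the 83 members. The lines below give 30 bases before and 20 bases from the annotated start, 5′ to 3′, for members at the high and low ends of the log2 ratios and for Rps2, and capitals mark a C followed by at least 4 pyrimidines, where the C lies at the annotated start or follows a purine within 10 bases of it.
Rps12 (chr10:23787190-23787239, minus strand): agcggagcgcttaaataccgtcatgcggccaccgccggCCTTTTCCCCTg
Rpl28 (chr7:4792935-4792984, plus strand): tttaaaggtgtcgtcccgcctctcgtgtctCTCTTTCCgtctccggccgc
Rpl39 (chrX:37085203-37085252, minus strand): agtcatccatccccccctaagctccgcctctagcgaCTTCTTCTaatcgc
Rps2 (chr17:24720033-24720082, plus strand): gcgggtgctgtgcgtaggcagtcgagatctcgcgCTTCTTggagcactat
Rpsa (chr9:120127736-120127785, plus strand): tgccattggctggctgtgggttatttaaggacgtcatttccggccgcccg
Rpl6 (chr5:121204471-121204520, plus strand): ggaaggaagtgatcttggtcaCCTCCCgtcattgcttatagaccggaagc
Rpl5 (chr5:107900498-107900547, plus strand): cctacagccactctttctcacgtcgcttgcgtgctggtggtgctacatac
Rps25 (chr9:44407684-44407733, plus strand): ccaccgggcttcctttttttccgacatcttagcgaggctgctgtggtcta
Rps27l (chr9:66946056-66946105, plus strand): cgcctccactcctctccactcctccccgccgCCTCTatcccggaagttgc

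Such a tract lay within 10 bases of an annotated start, on the transcribed strand, in 19 of 37 large subunit genes (51.4%) and in 13 of 26 small subunit genes, against 26.8% of 27025 genes with a start-site sequence. The letters CCGGAAG, the core of an ETS-family motif, occurred on either strand of the 300 bases around the start in 25 of 63 members (39.7%), against 9.93% of all genes. Read on the other strand as CTTCCGG, these letters can overlap a tract. A match is a description of the letters and not a site in use. Among members with a mean value of 20 or more, the 31 members with a tract had a median log2 ratio of 0.34 (range -0.02 to 0.59), and the 29 members without had 0.29 (range -0.03 to 0.57). The ranges overlapped almost entirely. Members counted as without a tract can hold one further than 10 bases from the annotated start. These groups therefore do not cleanly part members with a tract from members without. With and without CCGGAAG the medians were 0.30 (24 members) and 0.32 (36 members). Rps12 and Rpl6, at opposite ends of the ratios, both held a marked tract, though that of Rpl6 ended before the annotated start. Rps27l, counted with a tract, has a second annotated start (chr9:66946383-66946432) that held none. Rpsa, Rpl5 and Rps25 held none within 10 bases of the start. The lines of Rpl5 and Rps25 do show C-led pyrimidine runs more than 10 bases before it.

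Ribosomal protein mRNAs made up a larger share of the knockdown library. The large subunit genes took 7.98% of reads in the knockdown library (95% exact binomial interval 7.97 to 7.99) and 6.93% in the LacZ library (6.92 to 6.93). Small subunit genes took 5.82% in the knockdown library (5.82 to 5.83) and 4.91% in the LacZ library (4.90 to 4.91). The share was 1.15 times as large in the knockdown library for the large subunit and 1.19 times for the small subunit, and 13.8% against 11.8% for both together. These intervals cover counting error only and compare 2 libraries, not 2 conditions. In such bulk samples, more RNA per cell and more cells of one kind cannot be told apart. Among the 50 genes with the most reads, 20 were members in the knockdown library and 18 in the LacZ library.

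**Figure D1:**
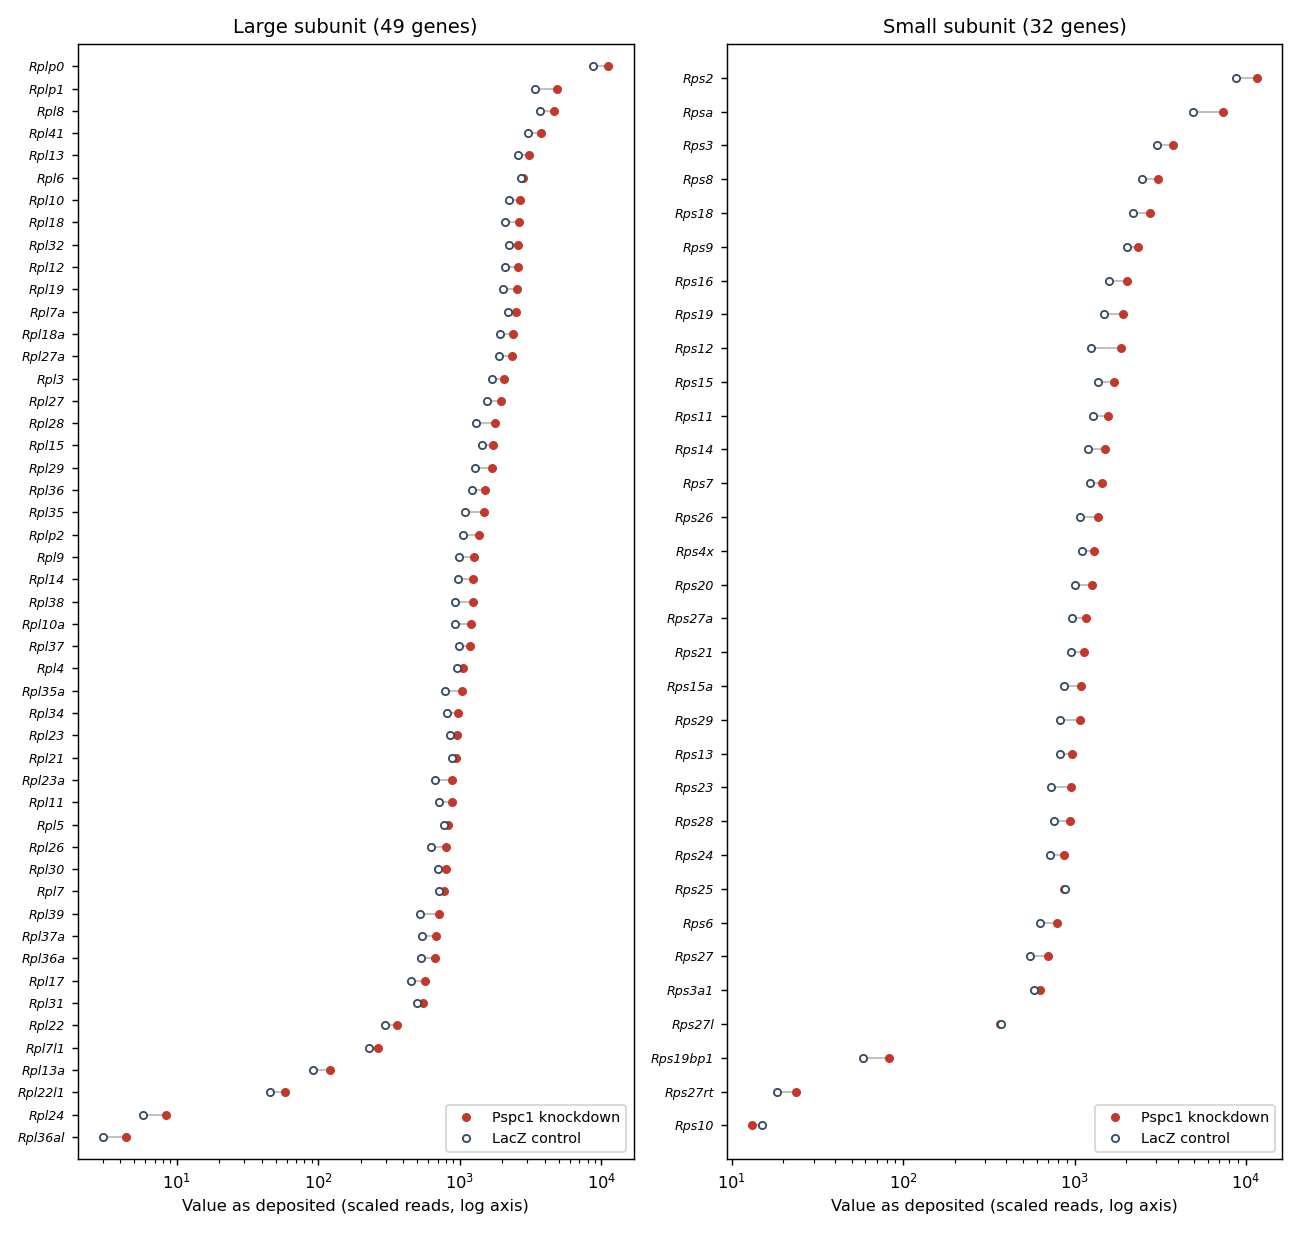
Values as deposited (scaled reads, log axis) of 49 large and 32 small subunit members in the Pspc1 knockdown library (filled points) and the LacZ control library (open points), ordered by the knockdown value. The 49 large and 29 of the 32 small subunit members drawn were higher in the knockdown library, on the authors' scaling, with Rps25, Rps27l and Rps10 as the exceptions; Rps25 and Rps27l turn to just above 0, and Rpl6 to below 0, under another scaling.

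As deposited, the members stood higher by a small and nearly common factor. Values are given as deposited, on the authors' scaling, and log2 ratios are knockdown over LacZ with a pseudocount of 0.5. All 49 large subunit members had a log2 ratio above 0, as did 31 of 34 small subunit members. The counts below take in the 80 members whose 2 values average 20 or more, and leave out Rpl24, Rpl36al and Rps10. When scaled by total reads, 46 of the 47 large and 30 of the 33 small subunit members were above 0, against 41.0% of all listed genes. Rps27rt entered with 23.6 in the knockdown library, while its LacZ value of 18.3 was under 20.

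Of the 47 large subunit members past this filter, 33 were at least 1.2-fold higher and none was 1.2-fold lower. Of the 33 small subunit members, 23 were at least 1.2-fold higher and again none was lower by that factor. Over all 5892 listed genes past the same filter, 21.0% were at least 1.2-fold higher, 18.8% at least 1.2-fold lower, and 55.0% were above 0. The median log2 ratio was 0.31 for the large subunit (1.24-fold), 0.31 for the small subunit (1.24-fold) and 0.04 for all listed genes. No member reached a 2-fold difference in either direction, where 1.49% of the 3629 listed genes of mean 50 or more did (0.551% higher and 0.937% lower).

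As deposited, the ratios were close to each other. The middle 50% of large subunit ratios ran from 0.25 to 0.37 and of small subunit ratios from 0.26 to 0.36, while that of all listed genes ran from -0.18 to 0.23. Between log2 ratios of 0.2 and 0.4 lay 58 of 80 members (72.5%), against 18.3% of all listed genes. The SD across members was 0.10 for the large and 0.14 for the small subunit, against 0.38 for all listed genes. The 259 other genes with a mean of at least 500 had a median of 0.15, and 26.3% of them lay between 0.2 and 0.4.

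**Figure D2:**
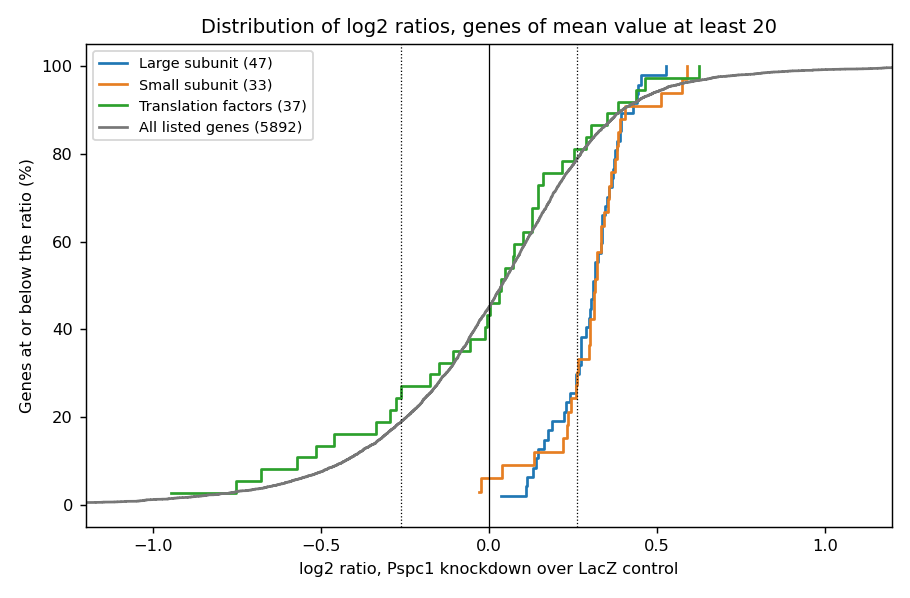
Cumulative percentage of genes at or below each log2 ratio (knockdown over LacZ) for 47 large subunit members, 33 small subunit members, 37 translation factors and all 5892 listed genes of mean 20 or more; dotted lines mark 1.2-fold. Both subunit curves rise steeply around 0.31, while the translation factors follow the curve of all genes around a median of 0.04.

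Over all listed genes and in the large subunit, transcript length and base composition moved with these ratios. Across 5889 listed genes of mean 20 or more, the log2 ratio had a Spearman's rho of -0.32 with merged exonic length and of 0.28 with GC content, where all genes share the same 2 libraries. Among members past the filter, rho with exonic length was -0.43 for the large and -0.02 for the small subunit. With GC content it was 0.45 and 0.16. Members have short exons, with a median of 1840.0 bp for the large and 1726 bp for the small subunit past the filter, against 4171 bp for all listed genes. The 753 other genes with exons up to 2000 bp had a median log2 ratio of 0.16, and 33.2% were at least 1.2-fold higher. The 38 of them with a mean of at least 500 had a median of 0.22, and 39.5% were at least 1.2-fold higher. After a trend in length and GC content was subtracted, the median was 0.19 for the large and 0.21 for the small subunit. It was 0.03 for all listed genes and -0.0015 for the 753 other short genes. The count at least 1.2-fold higher was then 14 of 47 (29.8%) and 11 of 33 (33.3%), where all listed genes gave 19.0%. The middle 50% then ran from 0.11 to 0.27 for the large subunit and from 0.10 to 0.34 for the small subunit. That of all listed genes ran from -0.16 to 0.21. Member ratios were thus further apart than as deposited, most so in the small subunit. The part of length and GC content in the members' ratios was not tested beyond this correction. Scaling by total reads moved the median of all genes by -0.10 and gave 12 and 8 members at least 1.2-fold higher, against 12.1% of all genes. The median stood above that of all genes by 0.27 for the large and 0.28 for the small subunit as deposited, and by 0.15 and 0.17 after the length and GC correction. A scaling of whole libraries leaves this distance as it is, since it moves all genes alike.

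**Figure D3:**
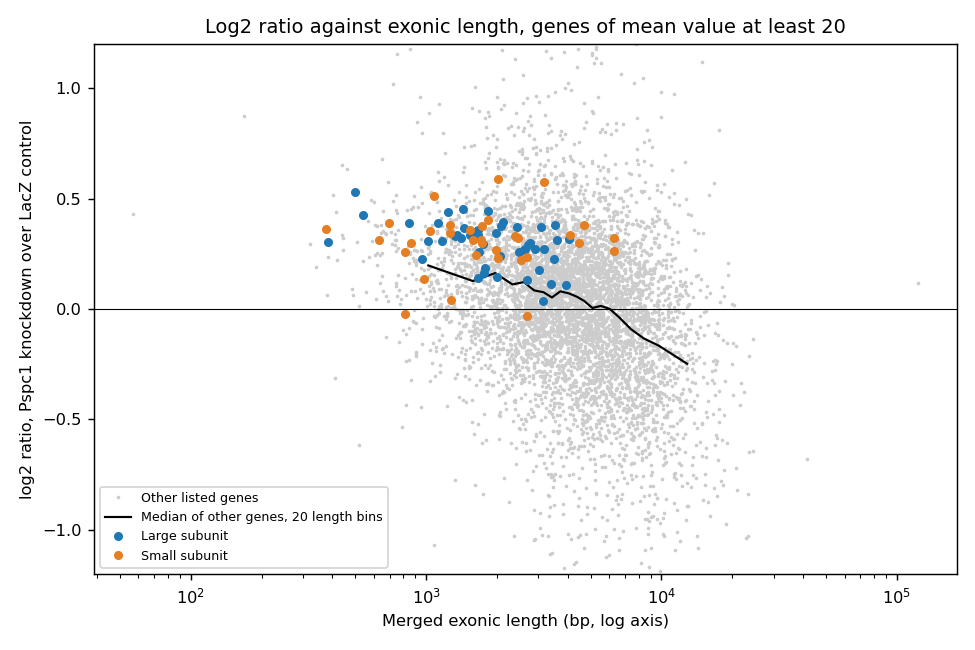
Log2 ratio (knockdown over LacZ) against merged exonic length (log axis) for listed genes of mean 20 or more, with members coloured by subunit and the median of the other genes in 20 length bins as a line; genes beyond 1.2 log2 in either direction are outside the plot. Members lie mostly above the line at their own length, and large subunit members with longer exons lie lower.

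Among the stalk genes of the large subunit, Rplp1 was at the high end, and Rplp0 and Rplp2 were nearer the middle. Rplp1 (ENSMUSG00000007892, mm10 chromosome 9, 61913284 to 61914542, minus strand), an acidic protein of the stalk that recruits elongation factors, had 4873 in the knockdown library and 3380 in the LacZ library. Its log2 ratio of 0.53 was the highest of the 47 large subunit members past the filter (95% counting interval 0.52 to 0.54). Rplp2, its partner in the stalk, had 1359 in the knockdown library and 1047 in the LacZ library. Rplp0, the base of the stalk, had 11204 in the knockdown library and 8747 in the LacZ library. The log2 ratios of Rplp2 and Rplp0 were 0.38 and 0.36, so all 3 stalk genes stood above the subunit median. After the length and GC correction they were 0.13 for Rplp1, 0.20 for Rplp2 and 0.19 for Rplp0, close to the corrected median of 0.19. Rplp1 has a merged exonic length of 499 bp, which is shorter than that of every other large subunit member past the filter except Rpl36.

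The next in the large subunit were Rpl39, Rpl28, Rpl35 and Rpl38. Rpl39, a small protein of the exit tunnel, had 712 in the knockdown library and 521 in the LacZ library (log2 ratio 0.45). Rpl28, a protein found only in eukaryotes, had 1778 in the knockdown library and 1308 in the LacZ library (0.44). Rpl35, beside the exit of the tunnel, had 1482 in the knockdown library and 1092 in the LacZ library (0.44). These genes were between 1.34 and 1.37 times as high in the knockdown library. Rpl38, whose loss in mice disturbs the axial skeleton, had 1236 in the knockdown library and 919 in the LacZ library (0.43). With the length and GC correction Rpl39 had 0.38, Rpl28 0.29, Rpl35 0.19 and Rpl38 0.04.

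Other exit tunnel and 5S particle genes lay lower. Rpl4, which lines the tunnel, had 1053 in the knockdown library and 951 in the LacZ library (0.15). Rpl17, a further tunnel protein, had 570 in the knockdown library and 452 in the LacZ library (0.33). The 3 tunnel genes therefore spanned 0.15 to 0.45. Rpl5 and Rpl11 bind the 5S rRNA and, when free, the p53 inhibitor Mdm2. Rpl5 had 831 in the knockdown library and 769.6 in the LacZ library (0.11), and Rpl11 had 879 in the knockdown library and 719 in the LacZ library (0.29). The counting interval of Rpl5, 0.09 to 0.13, did not reach that of Rpl11, 0.27 to 0.31. After the length and GC correction the order turned, with 0.27 for Rpl5 and 0.18 for Rpl11.

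The lowest large subunit ratio belonged to Rpl6. Rpl6 (ENSMUSG00000029614, mm10 chromosome 5, 121204481 to 121209241, plus strand), a surface protein of the subunit, had 2787 in the knockdown library and 2721 in the LacZ library (0.03, interval 0.02 to 0.04). Rpl21 (949 in the knockdown library, 877 in the LacZ library), Rpl7 (779 and 712) and Rpl31 (555 and 503) had log2 ratios of 0.11, 0.13 and 0.14. All of them are core subunits, and each was higher in the knockdown library by less than 1.2-fold. When scaled by total reads Rpl6 had -0.07, and with length and GC content taken out it had -0.02, so its direction depended on the scaling.

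In the small subunit Rps12 and Rpsa stood out at the top. Rps12 (ENSMUSG00000061983, mm10 chromosome 10, 23785183 to 23787275, minus strand), a protein of the beak of the subunit, had 1868 in the knockdown library and 1242 in the LacZ library. Its log2 ratio was 0.59 (interval 0.58 to 0.60), the highest of all 80 members past the filter. Rpsa (ENSMUSG00000032518, mm10 chromosome 9, 120127689 to 120132369, plus strand), which lies near the mRNA exit and whose product is also known as a laminin receptor, had 7343 in the knockdown library and 4936 in the LacZ library (0.57). These values rested on 94813 and 81049 reads for Rps12 and on 372762 and 322101 reads for Rpsa. Unlike Rplp1, both kept their size after the length and GC correction, with 0.64 for Rps12 and 0.52 for Rpsa. Only 9.89% of the 50-base windows of the Rps12 mRNA and 46.3% of those of Rpsa were free of an exact copy in another annotated gene, so their reads can be shared with pseudogenes.

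As deposited, the other genes at the mRNA channel and the decoding centre named here lay around or above the subunit median. Rps2, at the mRNA entry, had 11629 in the knockdown library and 8793 in the LacZ library (0.40). Rps3, also at the entry, had 3729.6 in the knockdown library and 3029 in the LacZ library (0.30). Rps26 and Rps28, at the exit, had 1369 and 941 in the knockdown library, against 1069 and 758 in the LacZ library (0.36 and 0.31). These 4 genes spanned 0.30 to 0.40. Rps23 and Rps15, at the decoding centre, had 951 and 1696 in the knockdown library, against 731 and 1364 in the LacZ library (0.38 and 0.31). Rps29, a small zinc-binding protein, had 1082 in the knockdown library and 826 in the LacZ library (0.39). These 7 core genes lay within 0.30 to 0.40, and Rps2, Rps23 and Rps29 were above the upper quartile of the subunit. With length and GC content taken out, Rps23 had 0.38, Rps3 0.34, Rps26 0.30 and Rps28 0.24. Rps2 then had 0.21, Rps29 0.18 and Rps15 -0.0013, beside a corrected subunit median of 0.21. Rps19bp1, the binding protein of Rps19, had 82.9 in the knockdown library and 58.0 in the LacZ library (0.51, and 0.24 after the correction).

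Rps25 was the core gene past the filter that was lower in the knockdown library. Rps25 (ENSMUSG00000009927, mm10 chromosome 9, 44407139 to 44410427, plus strand), which some viral mRNAs need for internal initiation, had 864 in the knockdown library and 883 in the LacZ library (-0.03, interval -0.05 to -0.01). Rps3a1 (633 in the knockdown library, 577 in the LacZ library) and Rps9 (2355 and 2022) had 0.13 and 0.22. After the length and GC correction Rps25 had -0.11. Rps25 had 0.01 with TMM scaling (trimmed mean of M values) and 0.02 with median-of-ratios scaling, so its direction depended on the scaling.

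**Figure D4:**
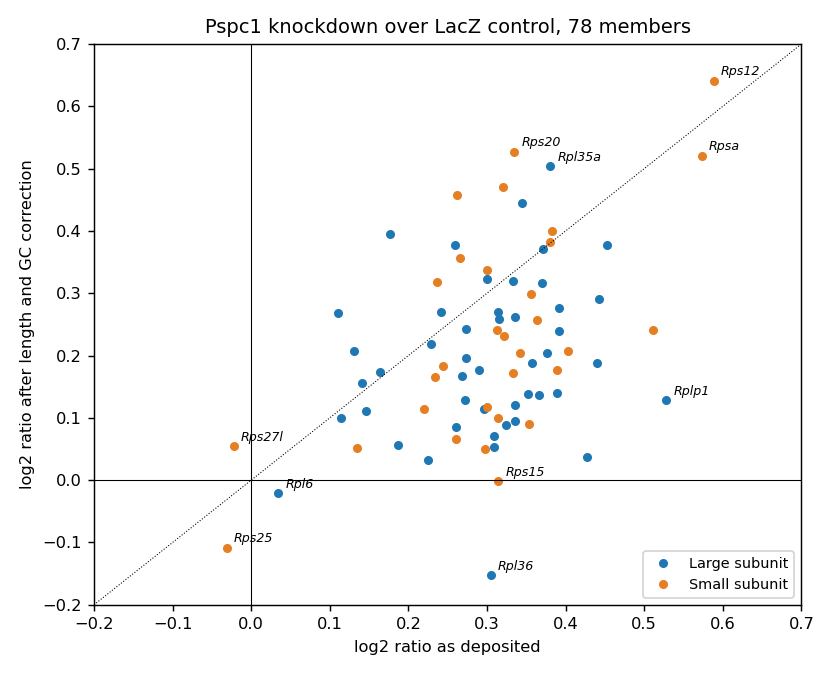
Log2 ratio (knockdown over LacZ) of 78 members past the filter as deposited (horizontal axis) and after subtraction of the trend in exonic length and GC content (vertical axis); the dotted line marks equal values. Rps12 and Rpsa stay at the high end on both axes, Rplp1 has 0.53 on the first and 0.13 on the second, and Rps25, Rpl6, Rps15 and Rpl36 lie below 0 after the correction.

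As deposited, the paralogues of Rpl22 and Rpl7 were closer to their parent genes in log2 ratio than that of Rps27. After the length and GC correction the pair of Rpl22 was further apart than that of Rps27. Rpl22l1 had 58.1 in the knockdown library and 45.7 in the LacZ library, or 16.1% and 15.3% of the value of Rpl22, an RNA-binding protein of the large subunit (361 and 298). Rpl7l1 had 267 in the knockdown library and 228 in the LacZ library, 34.3% and 32.0% of Rpl7. Rpl36al had 4.39 in the knockdown library and 3.03 in the LacZ library, beside 671 and 531 for Rpl36a. Rpl36al is under the filter, and its log2 ratio had a counting interval of 0.25 to 0.82. Its ratio was 0.53 without a pseudocount and 0.23 with a pseudocount of 5, against 0.34 and 0.33 for Rpl36a. The Rpl36a pair was therefore not ranked. Paralogue and parent differed in log2 ratio by 0.07, 0.10 and 0.13 in these pairs. After the correction Rpl22l1 had 0.44 and Rpl22 had 0.24, Rpl7l1 had 0.22 and Rpl7 had 0.21, and Rpl36al had 0.34 and Rpl36a had 0.26. The percentages set deposited values side by side without a correction for length.

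In the Rps27 pair the ratios were apart as deposited and close after the correction. Rps27 had 701 in the knockdown library and 548 in the LacZ library (0.35), whereas Rps27l, a paralogue known as a target of p53, had 367 in the knockdown library and 373 in the LacZ library (-0.02, interval -0.05 to 0.005). The difference of Rps27l from Rps27 was -0.38 log2, and after the length and GC correction the ratios were 0.05 for Rps27l and 0.09 for Rps27. Rps27l had 0.02 with TMM and 0.03 with median-of-ratios scaling. The Rps27 mRNA had 1.35% of its 50-base windows free of a copy elsewhere, and Rps27l had 77.6%. Rpl3l, Rpl10l, Rpl39l and Rps4l were not analysed here. Their parents Rpl3 (2050.0 in the knockdown library, 1696 in the LacZ library), Rpl10 (2652 and 2243) and Rps4x (1303 and 1100.3) had log2 ratios of 0.27, 0.24 and 0.24.

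Fau and Rack1, core subunits outside the naming rule, were also higher in the knockdown library. Fau, which encodes a small subunit protein fused to a ubiquitin-like domain, had 2037 in the knockdown library and 1461 in the LacZ library (0.48). Rack1, a scaffold on the small subunit that links it to signalling proteins, had 4341 in the knockdown library and 3242 in the LacZ library (0.42). Rps27a, which encodes ubiquitin fused to a small subunit protein, had 1163 in the knockdown library and 967 in the LacZ library (0.27). All 3 ratios were above 0, and as deposited those of Fau and Rack1 lay above the small subunit median. After the length and GC correction Fau had 0.20, Rack1 0.47 and Rps27a 0.36, beside a corrected small subunit median of 0.21.

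Levels per length differed widely among the members and kept their order between the libraries. Divided by the length of the annotated mRNA, the large subunit members had a median of 1570.4 per kb in the knockdown library and 1241 in the LacZ library, and the small subunit members of 1890.2 and 1551. The highest levels per kb in the large subunit belonged to Rplp1 (9766 in the knockdown library, 6773 in the LacZ library), Rplp0 (8250.1 and 6441) and Rpl41 (6901 and 5572). In the small subunit they belonged to Rps2 (11653 and 8811), Rps18 (4905 and 3925) and Rpsa (4592 and 3087). Across the 80 core proteins the upper quartile of this level was 2.46 times the lower one in the knockdown library and 2.49 times in the LacZ library. Spearman's rho between the values of the libraries was 0.99 over 83 members, which share annotation and length.

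A few core genes had values far under the others, and these lie in places with a second annotated gene. Rpl24 had 12.5 per kb in the knockdown library and 8.60 in the LacZ library, Rps10 14.8 and 16.9, and Rpl13a 116 and 88.5. Of the bases of their mRNAs, 71.5%, 63.6% and 59.3% lay in exons of another annotated gene, as did 63.1% of the paralogue Rpl36al (8.35 and 5.77 per kb). Rpl35 and Rpl23a shared 68.3% and 55.4% and had 1566 and 1570.4 per kb in the knockdown library, and 1155 and 1197 in the LacZ library. The 6 core mRNAs with 50% or more of their bases shared had a median of 206 per kb in the knockdown library and 169 in the LacZ library, against 2010.4 and 1589 for the other 74. Among these 74, Rps15a had 211 per kb in the knockdown library and 169 in the LacZ library, with an annotated mRNA of 5130 bp. Whether the authors' counting left out reads that fall on several genes is not stated, and its part in these low values was not tested.

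**Figure D5:**
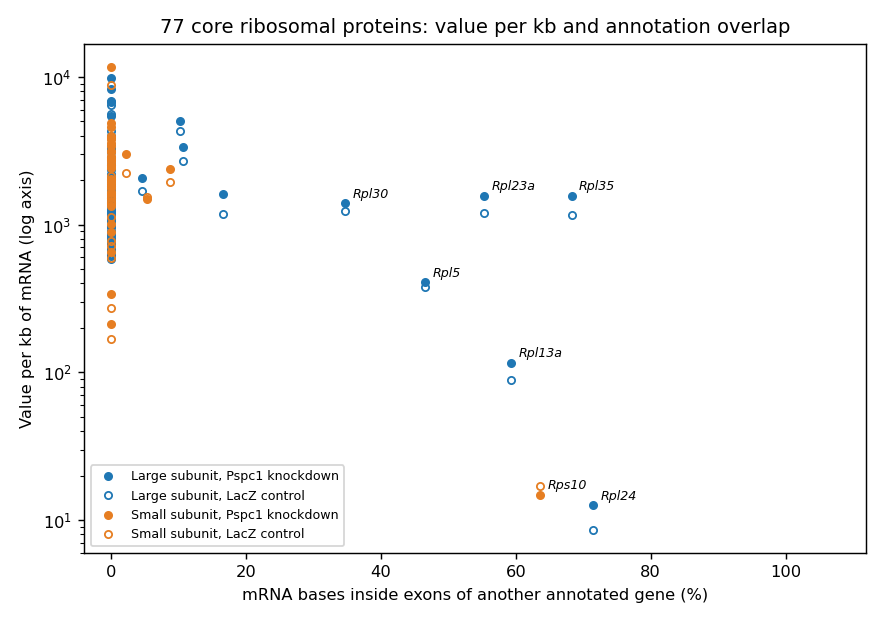
Value per kb of mRNA (log axis) of 77 core ribosomal proteins in the knockdown (filled) and LacZ (open) libraries, against the percentage of their mRNA bases that lie in exons of another annotated gene (GENCODE M21). Rpl24, Rps10 and Rpl13a share at least 59.3% of their bases and lie low, whereas Rpl35 and Rpl23a share 68.3% and 55.4% and lie with the others.

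Copies elsewhere in the genome affect nearly all members. The median member had 43.2% of its 50-base mRNA windows free of an exact copy in another annotated gene, and 32 of 83 had at least 50%. Rps19bp1 was among the 2 members with no copied window. The median log2 ratio of the 17 large subunit members with at least 50% of windows free of copies was 0.31, and that of the 15 such small subunit members was 0.33, near the values over all members. The tables list 53 pseudogenes with such symbols, which took 0.0595% of reads in the knockdown library and 0.0515% in the LacZ library. The largest was Rpl19-ps11, with 54.4 in the knockdown library and 43.9 in the LacZ library.

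Among other genes of protein synthesis the differences went both ways. Of 41 listed translation factors 37 passed the filter, of which 7 were at least 1.2-fold higher and 9 at least 1.2-fold lower (18.9% and 24.3%, against 21.0% and 18.8% of all listed genes). Their median log2 ratio was 0.04, that of all genes, and it turned to -0.068 when scaled by total reads. The highest were Eif6, an initiation factor that also keeps free large subunits apart from small ones (1338 in the knockdown library, 867 in the LacZ library, 0.63), and the elongation factors Eef1g (3738 and 2711, 0.46), Eef2 (10011 and 7393, 0.44) and Eef1b2 (652 and 499.6, 0.38). The lowest were Eif4g2, an initiation factor for cap-independent translation (164 in the knockdown library, 316 in the LacZ library, -0.95), the release factor Etf1 (20.4 and 34.8, -0.75), the histone chaperone Nap1l1 (46.0 and 73.9, -0.68) and Eif5 (20.8 and 31.1, -0.57). After the length and GC correction 6 of the 37 were at least 1.2-fold higher and 6 at least 1.2-fold lower. Of all listed genes 19.0% and 16.0% were then past these folds. Eif6 then had 0.49, Eef1g 0.36, Eef2 0.33 and Eef1b2 0.42. Eif4g2 had -0.67, Etf1 -0.64, Nap1l1 -0.45 and Eif5 -0.34.

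Regulators of ribosomal protein mRNAs and of translation were mostly lower in the knockdown library. Of 14 regulators 11 passed the filter, of which none was at least 1.2-fold higher and 6 (54.5%) were at least 1.2-fold lower, against 21.0% and 18.8% of all listed genes, with a median of -0.30. Larp1, which binds TOP mRNAs, had 77.1 in the knockdown library and 138 in the LacZ library (-0.84, and -0.81 after the length and GC correction). Eif4ebp1, a translation repressor under mTOR, had 259 in the knockdown library and 331 in the LacZ library (-0.36). Mdm2, the p53 inhibitor that free Rpl5 and Rpl11 bind, had 46.4 in the knockdown library and 58.6 in the LacZ library, and Rptor, the mTOR partner protein Raptor, had 101 and 127 (-0.33 each). The regulators have long exons, with a median of 6829 bp, and 4 of the 11 were at least 1.2-fold lower after the correction, against 16.0% of all listed genes. Of 9 assembly factors 8 passed the filter, with 2 higher and 2 lower by that factor, 25% each way and near the 21.0% and 18.8% of all listed genes. Nop53, which acts in large subunit maturation, had 334 in the knockdown library and 253 in the LacZ library (0.40), and Tsr2, the chaperone of Rps26, had 32.6 and 25.9 (0.33). Npm1, the nucleolar protein nucleophosmin, had 109 in the knockdown library and 171 in the LacZ library (-0.64), and Bccip, whose yeast counterpart is a chaperone of Rpl23, had 28.9 and 40.4 (-0.48).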

How the data were processed

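Poly-A RNA of 1 Pspc1 knockdown and 1 LacZ library of MS1 cells was sequenced, per the labels' protocols. The submitters' processing notes name Trimmomatic 0.39, HISAT2 2.1.0, featureCounts 2.0.0, DESeq 1.39.0 and mm10, without roles. The authors deposited, per gene, a scaled signal whose formula is not given in the sources used here. Every value was a whole multiple of 1 step per library within 0.01 reads, which gave the read numbers. Symbols came for 11399 of 11405 identifiers. Exons, mRNAs and overlaps came from GENCODE M21 on the same build, start-site sequences from RefSeq GRCm38.p6. The authors' annotation and use of strand are not given in the sources used here, so reads of overlapping genes on either strand cannot be told apart.

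The log2 ratio was log2((knockdown + 0.5)/(LacZ + 0.5)), with exact counting intervals at 95% (conditional binomial, Clopper-Pearson) taken without the pseudocount. Group counts took genes whose 2 values average 20 or more, or 50 or more for 2-fold. The length and GC correction subtracted a cubic trend fitted over all genes of mean 20 or more. All 50-base windows of 1 coding mRNA per member were compared on both strands with the transcripts of all other annotated genes. Members, lists and thresholds were chosen with earlier results of these data known. Named genes were the 5 highest and 5 lowest log2 ratios and the 3 highest and 3 lowest levels per kb in each subunit, paralogue pairs, role groups and up to 4 of the largest changes per direction in the other lists. Genes beyond these were chosen after their values were seen. Alternatives were scaling by total reads, TMM (trimmed mean of M values) and median of ratios, other pseudocounts and filters, core proteins alone and members with few copied windows. Values of single genes are not all reported here, and 3 genes that entered the counts are not drawn in the plots of single genes. Steps were tested on simulated data. Python 3.11.15, numpy 2.4.6, pandas 2.3.3, scipy 1.17.1 and matplotlib 3.10.9 were used.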

Additional observations from a re-analysis of the deposited data

How the results depend on the processing

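No paired analysis was possible because each group holds 1 library, and no library could be left out. The large subunit median log2 ratio of 0.31 was 0.20 scaled by total reads, 0.35 with TMM, 0.36 with median of ratios, 0.19 after the length and GC correction and 0.31 with no filter. The small subunit median of 0.31 was 0.21 scaled by total reads, 0.36 with either TMM or median of ratios, 0.31 with a pseudocount of 5, 0.21 after the length and GC correction, 0.32 for core proteins and 0.33 for members with at least 50% of windows free of copies, a setting added after seeing the data. Large subunit members at least 1.2-fold higher numbered 33, with 12 scaled by total reads, 14 after the length and GC correction and 12 of 17 with windows free of copies. Small subunit members numbered 23, with 8, 11 and 12 of 15 under these settings. The translation factor median of 0.036 turned to -0.068 scaled by total reads, and was 0.078 with TMM, 0.086 with median of ratios, 0.026 after the length and GC correction, 0.059 with a mean of 50 or more and 0.0036 with no filter. Core proteins took 7.96% (large) and 6.38% (small) of reads in the knockdown library, and 6.91% and 5.34% in the LacZ library. Without the 10 genes with the most reads, members took 6.95% and 4.33% in the knockdown library, and 6.44% and 3.74% in the LacZ library. These 10 genes were taken in each library apart, and Rplp1 was among them only in the knockdown library. The 2 large subunit shares therefore cover unlike sets of genes and give no ratio between the libraries. Among 63 genes named by rule, Rps15 alone was past 1.2-fold and had the other sign under a setting, at -0.0013 after the length and GC correction. Rpl36, named outside that rule, had 0.30 as deposited and -0.15 after this correction. No member reached 2-fold under any of these settings. The cause of these shifts was not tested. Without replicates the spread between cultures is unknown.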
